A study of Mus musculus with 4 samples.

Results

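Dclk1, Trpm5, Pou2f3, Avil, Rgs13, Il17rb, Il25, Sh2d6 and Gnat3 are 9 genes by which the chemosensory tuft cells of the gut are recognised, and they were followed here through the cells of mouse duodenal crypts. They were taken as a named list by their symbols, and all 9 were found among the 31053 genes of the count files. Single-cell RNA libraries (10x Genomics 3' v3.1) had been made from TOM+ crypt cells, that is, living cells sorted for the red reporter that Cre switches on, with 2 libraries per genotype. The WT mice are labelled Atoh1CreER-T2;R26RTom. The APC-KO mice are labelled Atoh1Cre;Apcfl/fl;R26RTom, although the series description gives the inducible CreER-T2 form for them too. Atoh1 is a transcription factor gene of the secretory lineage, so its driver set which cells could carry the reporter and lose Apc, a negative regulator of Wnt signalling. All mice received 2 doses of tamoxifen at 1 mg/mL by intraperitoneal injection, 24 h apart, and crypts were taken 12 h after the last dose. The labels give no age or sex and do not say how many mice a library came from, so p-values measure the spread between libraries, which may be technical.

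Tuft cells are rare epithelial cells that sense luminal compounds, such as succinate from parasites and microbes, with the machinery of taste cells. A receptor releases a G protein of the gustducin type, phospholipase C raises intracellular calcium, and the cation channel Trpm5 opens. The cells depend on the transcription factor Pou2f3 and are the main epithelial source of the cytokine Il25, which acts through the receptor subunit Il17rb on type 2 lymphoid cells.

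In the GENCODE vM21 annotation of GRCm38, the genes lie on 8 chromosomes and each is protein coding. Gnat3, the gustducin alpha subunit, lies on chromosome 5 from 17962549 to 18019834, and Trpm5 on chromosome 7 from 143069153 to 143094642. Rgs13, a regulator of G protein signalling, lies on chromosome 1 from 144138654 to 144177372. Pou2f3 lies on chromosome 9 from 43123939 to 43210369. Dclk1, a doublecortin-like kinase, lies on chromosome 3 from 55242364 to 55539068, Avil, the actin-bundling protein advillin, on chromosome 10 from 127000709 to 127020994, and Sh2d6, an SH2 domain protein, on chromosome 6 from 72513641 to 72521707. The ligand and the receptor subunit share chromosome 14, with Il17rb from 29996135 to 30008896 and Il25 from 54932695 to 54935837.

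RefSeq promoter sequences (GRCm38.p6), which run from 250 bases before to 50 bases after a start site, were given for 7 of the 9 genes in 8 windows. The sequences below are the 250 bases before the start of the gene with POU motif matches in its window, Avil, and of Rgs13 and Dclk1, the pair with the highest CPM in WT TUFT cells, read 5′ to 3′ on the strand of the gene. Capitals mark ATGCAAA or its reverse complement TTTGCAT, the first 7 bases of the octamer bound by POU factors such as Pou2f3.
Avil, chr10:127000459-127000708, plus strand: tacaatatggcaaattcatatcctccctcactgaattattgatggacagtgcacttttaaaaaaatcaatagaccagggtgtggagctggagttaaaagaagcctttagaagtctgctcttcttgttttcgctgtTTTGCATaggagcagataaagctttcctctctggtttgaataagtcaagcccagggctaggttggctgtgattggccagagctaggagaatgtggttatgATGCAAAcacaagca
Rgs13, chr1:144177373-144177622, minus strand: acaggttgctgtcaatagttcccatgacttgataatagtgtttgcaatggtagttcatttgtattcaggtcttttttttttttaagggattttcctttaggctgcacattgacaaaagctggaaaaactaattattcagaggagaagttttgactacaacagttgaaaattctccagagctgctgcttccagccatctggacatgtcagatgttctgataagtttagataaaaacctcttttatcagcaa
Dclk1, chr3:55242114-55242363, plus strand: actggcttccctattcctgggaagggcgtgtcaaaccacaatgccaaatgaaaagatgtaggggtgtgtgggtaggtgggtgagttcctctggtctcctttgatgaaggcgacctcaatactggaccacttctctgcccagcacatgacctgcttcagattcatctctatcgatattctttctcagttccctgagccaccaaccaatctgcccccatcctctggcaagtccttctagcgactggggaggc
Avil held both forms, with first bases 15 and 115 bases before the start, and no other window of the 8 held either. Of 32851 windows in the table, 4.63% held this string on either strand. The full octamer ATGCAAAT, or ATTTGCAT on the other strand, which contains the shorter string, was in 1.74% of the windows and in none of these 8. A match describes letters in the window and no bound site.

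The deposited tables kept 4814 and 3821 cells of the WT libraries and 356 and 6243 cells of the APC-KO libraries, with medians of 3973 to 8370 UMIs (unique transcript tags) per cell, and gave each cell 1 of 12 type names. APC-KO replicate 1 stood apart, since its tables kept 5.15% of its UMIs against 37.6% to 50.3% elsewhere. Libraries shared 1 to 8 barcodes with one another. In the sum of kept cells Apc was at 87.2 and 77.9 CPM (UMIs of a gene per 1e+06 UMIs of the sum) for WT against 88.1 and 88.1 CPM for APC-KO. The 3' chemistry and unnamed floxed exons leave the deletion unchecked by this level. The type called TUFT held 231 and 123 cells in the WT libraries and 8 and 276 in the APC-KO libraries. All values of APC-KO replicate 1 within TUFT therefore rest on 8 cells and 52826 UMIs.

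In both WT libraries and in APC-KO replicate 2, each of the 9 genes was highest in TUFT. This is a description of names the authors gave from expression. In APC-KO replicate 1, Il25 and Gnat3 had 0 UMIs in kept cells. Il17rb was at 18.9 CPM in TUFT there against 20.9 CPM in the type called GP, from 1 UMI each. Rgs13 was at 1616 and 1982 CPM in the WT TUFT sums, and 95.4% and 98.2% of its UMIs in kept cells lay there. Dclk1 was at 1359 and 1449 CPM, Avil at 820 and 832 CPM, Sh2d6 at 521 and 514 CPM, Trpm5 at 402 and 470 CPM and Pou2f3 at 205 and 254 CPM. The signalling ligand, its receptor and the taste G protein were far below these: Il17rb was at 39.8 and 33.6 CPM, Gnat3 at 17.1 and 28.3 CPM and Il25 at 12.5 and 10.6 CPM. These are tags per 3' end and were not scaled by gene length. In the order of WT means, Rgs13 and Dclk1 did not overlap, and among the lower genes Gnat3 and Il25 were separated by 17.1 against 12.5 CPM. The plot of levels and positive cells in TUFT shows all 4 libraries.

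**Figure D1:**
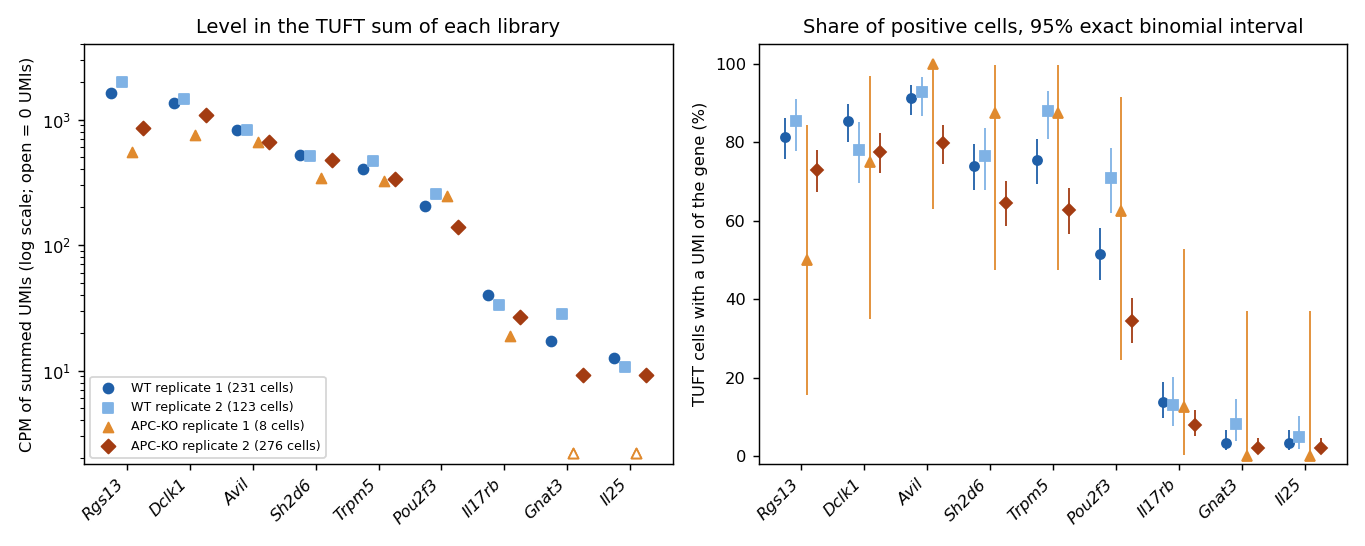
CPM of each gene in the summed TUFT cells (left, log scale, open symbols at 0 UMIs) and percent of TUFT cells with at least 1 UMI (right, bars: 95% exact binomial interval), for 2 WT and 2 APC-KO libraries. Rgs13 is at 1616 and 1982 CPM in WT against 549 and 858 CPM in APC-KO, and the intervals of APC-KO replicate 1, with 8 cells, are the widest.

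Detection per cell did not follow the order of the levels throughout, with Avil found most often in both WT libraries before thinning. Avil had a UMI in 91.3% and 92.7% of WT TUFT cells, Dclk1 in 85.3% and 78.0%, Rgs13 in 81.4% and 85.4%, Trpm5 in 75.3% and 87.8% and Sh2d6 in 74.0% and 76.4%. Pou2f3 had a UMI in 51.5% and 70.7%. With each cell thinned to 2000 UMIs, the Pou2f3 shares were 34.3% and 34.5%, so the gap between the WT libraries in this gene was not there at equal depth. Nor was the lead of Avil, since thinned WT means were 80.0% for Rgs13, 78.1% for Avil and 77.7% for Dclk1. Il17rb was found in 32 of 231 and 16 of 123 WT TUFT cells, Gnat3 in 3.46% and 8.13% and Il25 in 3.46% and 4.88%. Positive cells held a median of 6 and 9 Rgs13 UMIs, and 1 UMI of Pou2f3, Il17rb, Il25 or Gnat3.

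Outside TUFT the genes were at trace levels. Over the cells of the other 11 types summed, Dclk1 was at 4.62 and 2.98 CPM in WT against 0.338 and 2.57 CPM in APC-KO. The ratio of TUFT to the other cells was 294 and 485 for Dclk1 in the WT libraries and 566 and 2026 for Rgs13, against 37.9 and 49.0 for Il17rb. Il17rb was thus the least restricted of the 7 genes with over 3 UMIs outside TUFT in the WT libraries, with 58.3% and 57.6% of its UMIs in TUFT there and 16.7% and 34.8% in the APC-KO libraries. Gnat3 had 2 UMIs outside TUFT in all libraries together and Il25 had 1. Barcodes with 1 to 50 UMIs, taken as free RNA, held 51.5 and 39.3 CPM of Dclk1 in WT against 25.6 and 40.5 CPM in APC-KO, above the level in the other cells of every library. In the map of positive cells by type, shares outside TUFT were at most 4.79% in the WT libraries and at most 3.54% in APC-KO replicate 2.

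**Figure D2:**
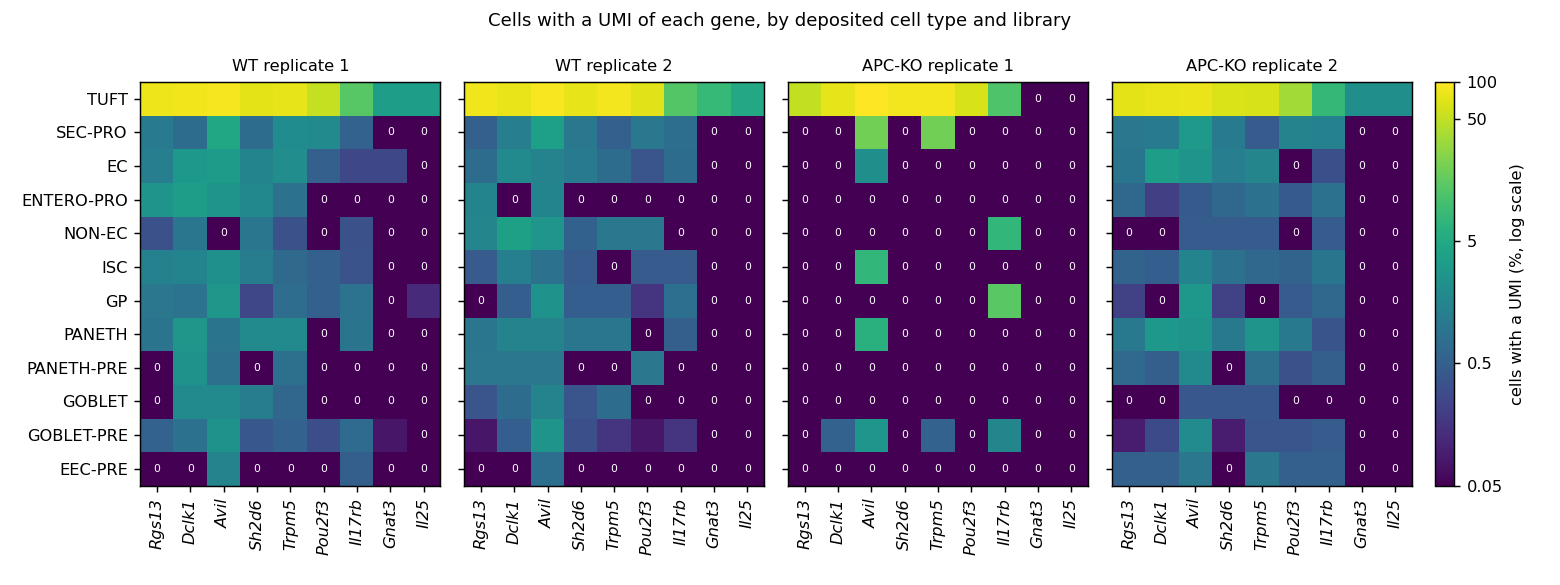
Percent of cells with at least 1 UMI of each gene (columns) in each deposited cell type (rows), 1 panel per library, with a log colour scale from 0.05 to 100 and 0 where no cell had a UMI. The TUFT row is high in all 4 panels for Rgs13, Dclk1, Avil, Sh2d6, Trpm5 and Pou2f3. Il25 and Gnat3 are at 0 in that row for APC-KO replicate 1. The SEC-PRO values above 0 in the APC-KO replicate 1 panel come from 1 of 5 SEC-PRO cells.

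Pou2f3 was compared with Dclk1 by type, a comparison singled out after its values were seen and given as a description. In TUFT there were 180, 144, 13 and 121 Pou2f3 UMIs and 1194, 820, 40 and 937 Dclk1 UMIs, in the order WT replicate 1, WT replicate 2, APC-KO replicate 1, APC-KO replicate 2. Pou2f3 thus made up 13.3% (95% exact binomial interval 12.2 to 14.5) of both genes' UMIs there, and 5.36% to 13.1% by library in free RNA. Over all other types it made up 26.4% (21.7 to 31.5), with 27.1% in ISC, 25.9% in GP, 23.1% in GOBLET-PRE and 8.62% in EC. The type called SEC-PRO, with 15, 5, 0 and 16 Pou2f3 UMIs and 4, 9, 0 and 17 Dclk1 UMIs, stood at 54.5% (41.8 to 66.9). By library SEC-PRO was at 78.9%, 35.7% and 48.5%, with none of these UMIs in APC-KO replicate 1. In APC-KO replicate 2, ISC was as high at 8 UMIs of each gene, and GOBLET-PRE was at 44.4% from 9 UMIs. A raised share was therefore not limited to SEC-PRO. The intervals cover counting error only.

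Single TUFT cells usually held several of the genes. The median number detected was 5 of 9 in both WT libraries and in APC-KO replicate 1 and 4 in APC-KO replicate 2, and 4, 4, 3.5 and 3.5 with cells thinned to 2000 UMIs. At least 3 genes were found in 93.1% and 96.7% of WT TUFT cells and in 87.5% and 84.1% of APC-KO TUFT cells. Of the cells with other names, 34, 15, 0 and 19 held at least 3 genes, or 0.742%, 0.406%, 0% (0 of 348 cells, which allows up to 0.862%) and 0.318%. No cell held all 9.

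**Figure D3:**
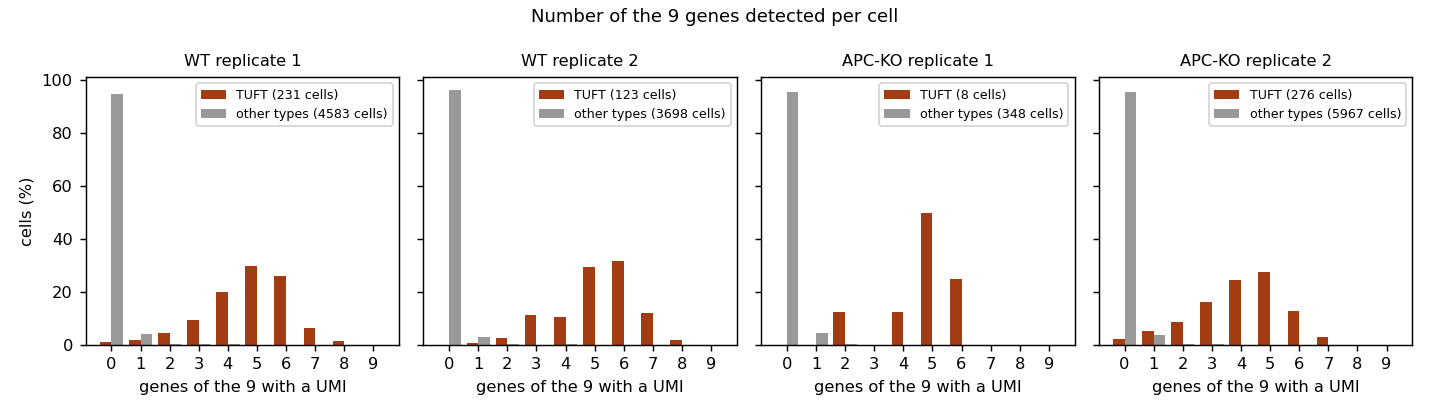
Percent of cells (y axis) by how many of the 9 genes had a UMI (x axis), for TUFT cells and for all other types, 1 panel per library. TUFT cells centre on 4 to 6 genes and the other cells on 0.

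TUFT cells differed in which of the genes were detected in them. After thinning to 2000 UMIs, 46 of 213 and 22 of 119 WT TUFT cells and 5 of 8 and 80 of 232 APC-KO TUFT cells had no Rgs13 UMI. The split on Rgs13 was chosen after its values were seen and is a description. Without Rgs13, Dclk1 was at 761, 591 and 775 CPM in WT replicates 1 and 2 and APC-KO replicate 2, against 1557, 1598 and 1283 CPM with it. Avil was likewise at 554, 409 and 431 CPM against 916, 995 and 829 CPM. Pou2f3 showed no such gap, at 239, 250 and 162 CPM without Rgs13, from 22, 11 and 26 UMIs, against 219, 201 and 138 CPM with it. Its detection was nearly unrelated to that of Rgs13 in these libraries (phi coefficient 0.04, -0.06 and -0.03). A weak relation was not particular to Pou2f3, since Trpm5 with Rgs13 was at 0.11, -0.05 and 0.12. The part of missed detection at 2000 UMIs was not tested. Sox4, a transcription factor gene, was at 1402, 2477 and 1462 CPM without Rgs13 against 931, 1222 and 832 CPM with it. Sox4 is a single gene among many measured in this split. Whether cells without Rgs13 were less mature was not tested. In APC-KO replicate 1, where the split left 5 and 3 cells, Sox4 was instead lower without Rgs13, at 2300 against 3167 CPM.

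The first question between genotypes was whether TUFT cells were as frequent. They made up 4.80% and 3.22% of kept cells in WT and 2.25% and 4.42% in APC-KO. The groups overlapped, and the difference of means was -0.675 percentage points (4.01% ± 1.12 against 3.33% ± 1.54, SD, n = 2 each, two-sided exact permutation p = 0.667). With 2 libraries per group, the smallest p this test allows is 0.333. The difference was 0.412 points without APC-KO replicate 1 and 0.115 without WT replicate 1, the opposite direction in both cases. Counting cells with at least 3 of the 9 genes, whatever their name, gave 5.17% and 3.51% in WT and 1.97% and 4.02% in APC-KO (exact permutation p = 0.667).

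The second question was whether a TUFT cell's content of these genes differed. No gene of the list passed the edgeR test of summed TUFT UMIs at an adjusted p of 0.05: 8 of 9 were tested, 0 were called, and 1 had an unadjusted p under 0.05. Of all 7695 genes tested, 13 (0.169%) were called, and 811 had an unadjusted p under 0.05. DESeq2 called 0 of the 8 and 1 gene in all. The 8 log2 fold changes were all below 0, with a median of -0.39 beside -0.02 over all genes tested. In 7 of the 8, both APC-KO libraries lay below both WT libraries, which was also so for 28.5% of all genes tested.

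Rgs13 had the largest log2 difference among them. Its 1616 and 1982 CPM in WT stood against 549 and 858 CPM in APC-KO, with no overlap. The log2 fold change was -1.19 (SE 0.31, adjusted p = 0.145, edgeR). It was between -1.71 and -0.93 with any library left out. The adjusted p ranged from 0.00762 to 1.00 over the alternatives and passed the threshold in 2 of them: with genes of at least 1 count all tested (-1.24, adjusted p = 0.00762, edgeR) and with thinning to 2000 UMIs per cell (-1.14, adjusted p = 0.0390, edgeR). Rgs13 was found in 81.4% and 85.4% of WT TUFT cells and, in APC-KO, in 4 of 8 cells and in 72.8%, a difference of -22.0 percentage points (exact permutation p = 0.333, the smallest possible). Thinned to 2000 UMIs, the shares were 78.4% and 81.5% against 37.5% and 65.5%.

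Of the other sensing genes, Trpm5 was at 402 and 470 CPM in WT against 322 and 336 CPM in APC-KO (log2 fold change -0.28, SE 0.26, adjusted p = 0.803, edgeR). The groups did not overlap, by a margin smaller than the gap between the WT libraries. Gnat3 was at 17.1 and 28.3 CPM in WT against 0 and 9.27 CPM in APC-KO, from 15, 16, 0 and 8 UMIs (-1.16, SE 0.59, adjusted p = 0.527, edgeR). A count of 0 in 8 cells allows up to 56.8 CPM, so the lower level in APC-KO replicate 1 was not detectable as a difference.

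The regulator Pou2f3 was at 205 and 254 CPM in WT against 246 and 140 CPM in APC-KO, and the groups overlapped (log2 fold change -0.41, SE 0.27, adjusted p = 0.674, edgeR). Its sign depended on APC-KO replicate 2, without which the value was 0.11. The share of Pou2f3-positive TUFT cells was 34.4% in that library against 51.5% and 70.7% in WT. After thinning it was 24.6% there against 34.3% and 34.5% in WT. APC-KO replicate 1 was at 62.5%, and at 3 of 8 cells after thinning, so the groups overlapped in both cases.

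Among the cytoskeletal and signalling markers, Dclk1 was at 1359 and 1449 CPM in WT against 757 and 1086 CPM in APC-KO (log2 fold change -0.46, SE 0.30, adjusted p = 0.659, edgeR). Avil was at 820 and 832 CPM against 663 and 662 CPM (-0.22, SE 0.27, adjusted p = 0.854, edgeR). Sh2d6 was at 521 and 514 CPM against 341 and 479 CPM (-0.14, SE 0.28, adjusted p = 0.917, edgeR), and its value was 0.02 once APC-KO replicate 1 was left out. In these 3 genes the groups did not overlap and the test was not passed.

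Of the cytokine pair, Il25 was at 12.5 and 10.6 CPM in WT against 0 and 9.27 CPM in APC-KO, from 11, 6, 0 and 8 UMIs, too few for the edgeR filter. Il17rb was at 39.8 and 33.6 CPM in WT against 18.9 and 26.7 CPM in APC-KO, from 35, 19, 1 and 23 UMIs (log2 fold change -0.38, SE 0.38, adjusted p = 0.818, edgeR). The 8 cells of APC-KO replicate 1 held a single Il17rb UMI.

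TUFT cells of APC-KO replicate 2 also held goblet transcripts. All 8 goblet markers were found in the TUFT sums of 3 libraries and 7 of 8 in APC-KO replicate 1, where Clca1 was at 0. Their summed level was 4975 and 3560 CPM in WT against 2272 and 26678 CPM in APC-KO, and the median log2 fold change of the 8 was 1.90, with 0 called. Cells with at least 1% goblet marker UMIs were 10 of 231, 3 of 123, 0 of 8 and 42 of 276. Without them Rgs13 was at 1673 and 2007 CPM in WT against 549 and 964 CPM in APC-KO (log2 fold change -1.10, SE 0.30, adjusted p = 0.190, edgeR). Il17rb then had a log2 fold change of 0.02, the opposite sign. Markers of other epithelial types were also measured in the TUFT sums. Of 7 enterocyte markers 6 were tested, all 6 were higher in APC-KO and 0 were called, with a median log2 fold change of 1.34 and 5 at an unadjusted p under 0.05 (edgeR). In the cells with other names 6 of 7 were higher too, with a median of 1.10 and 0 called. This rise was therefore not limited to TUFT. The summed enterocyte level in TUFT was 257 and 366 CPM in WT against 454 and 526 CPM in APC-KO. Alpi was at 0 in the TUFT sums of WT replicate 2 and APC-KO replicate 1. All 7 stem and progenitor markers were tested, 5 were higher and 0 were called, with a median of 1.09 and 4 at an unadjusted p under 0.05 (edgeR). They summed to 706 and 560 CPM in WT, and to 265 and 1077 CPM in APC-KO, so the groups overlapped, with Mki67 and Top2a at 0 in APC-KO replicate 1. Paneth markers had a median of 0.02 (6 tested, 3 higher, 0 called) and endocrine markers of -0.21 (2 tested, both lower, 0 called). The part of these markers in the lower tuft values was not tested. Immune markers summed to at most 33.6 CPM in any TUFT sum and stroma markers to at most 3.48 CPM.

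TUFT-like profiles were also present in barcodes that the deposited tables left out. Other tuft markers found in at least 30% of TUFT cells and under 2% of other cells in both WT libraries numbered 22. None of the 9 genes was used, and APC-KO cells had no part in the choice. Barcodes with at least 4 of the 22 and under 3000 genes numbered 290 and 201 in WT, and 139 and 172 in APC-KO. Their median mitochondrial share was 10.6%, 11.3%, 21.5% and 8.19%, against 4.40%, 4.80%, 5.37% and 3.95% in TUFT cells of the tables, where no kept cell reached 7%. In APC-KO replicate 1 these 139 barcodes held 1640 CPM of Dclk1, 1052 of Avil, 799 of Sh2d6 and 632 of Trpm5, above the 8 TUFT cells in each case. Pou2f3 was instead below them, at 142 against 246 CPM, and Rgs13 was level with them, at 550 against 549 CPM. By library, Rgs13 in the outside barcodes was at 754 and 980 CPM in WT against 550 and 585 CPM in APC-KO. With these barcodes added to the picked kept cells, 9 genes were tested and 0 called. The log2 fold changes of Dclk1, Trpm5, Avil, Sh2d6 and Il17rb were then above 0 (0.16, 0.43, 0.27, 0.69 and 0.59), while that of Rgs13 stayed at -0.82 (SE 0.31, adjusted p = 0.729, edgeR). The direction of those 5 genes between genotypes thus differed between the cells in the tables and this wider set. The part of the mitochondrial share, and of the choice of markers in WT, in this was not tested.

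**Figure D4:**
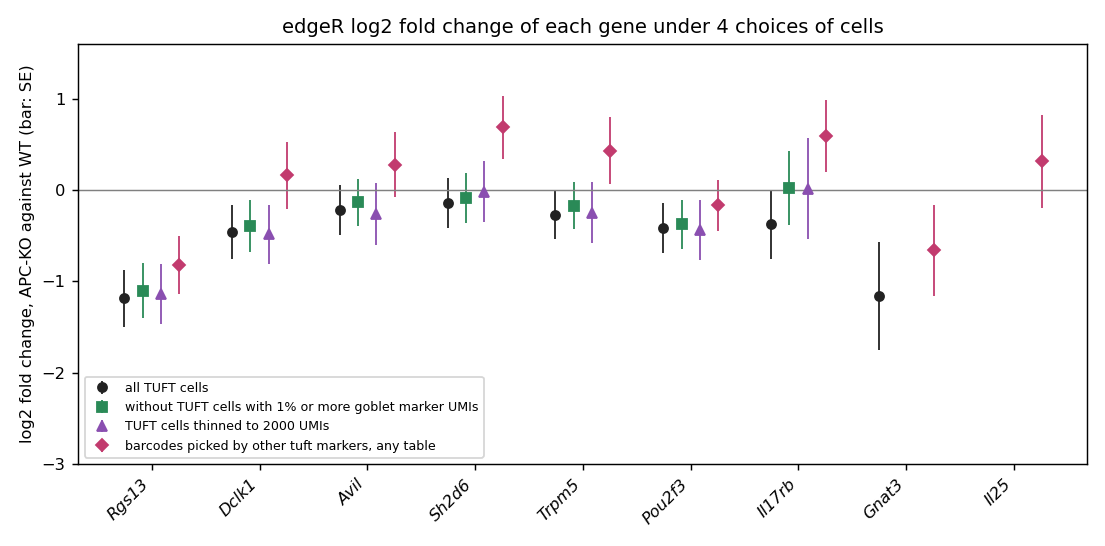
edgeR log2 fold change of each gene, APC-KO against WT (bars: SE), for all TUFT cells, TUFT cells without those with 1% or more goblet marker UMIs, thinned TUFT cells, and barcodes picked by other tuft markers. Rgs13 lies below 0 in the 4 sets (-1.19, -1.10, -1.14 and -0.82); Dclk1, Avil, Sh2d6 and Trpm5 change side in the picked barcodes, and missing points were not tested.

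**Figure D5:**
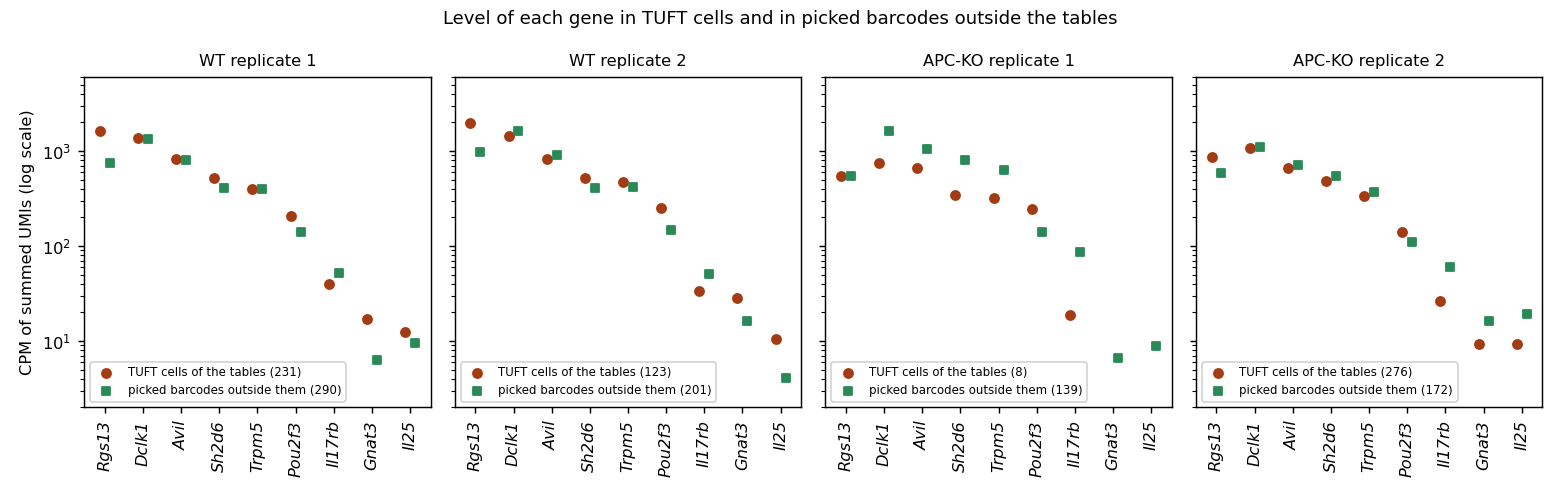
CPM of each gene (log scale) in TUFT cells of the deposited tables and in picked barcodes outside them, 1 panel per library; genes at 0 are not drawn. In the WT panels Rgs13 is at 1616 and 1982 CPM in TUFT cells, above Dclk1, and at 754 and 980 CPM outside, below Dclk1. In the APC-KO replicate 1 panel Dclk1 is at 757 CPM in the tables and 1640 CPM outside.

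Over all kept cells, where fewer TUFT cells and less RNA per cell cannot be told apart, none of the 8 genes tested passed (0 of 13345 genes called, 0.0%, 495 with an unadjusted p under 0.05, 23 called by DESeq2). Rgs13 was at 60.3 and 54.4 CPM in WT against 9.64 and 28.9 CPM in APC-KO (log2 fold change -1.42, SE 0.43, adjusted p = 1.00, edgeR). It was -0.97 with APC-KO replicate 1 left out and -2.37 with APC-KO replicate 2 left out. Each of these fits leaves 1 APC-KO library, so the spread between APC-KO libraries does not enter it. With 2 libraries per genotype, no gene of the list passed the threshold under any alternative run on these sums. In 6 of the 8 both APC-KO libraries lay below both WT libraries and in 0 above, against 26.0% and 8.44% of all genes tested.

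In the cells with other names, 0 of 7 genes tested were called (0 of 13251 genes, 0.0%, 463 with an unadjusted p under 0.05, 22 called by DESeq2). Il17rb was at 1.05 and 0.685 CPM in WT against 1.69 and 1.63 CPM in APC-KO there, from 25, 14, 5 and 43 UMIs, with no overlap (log2 fold change 0.96, SE 0.43, adjusted p = 1.00, edgeR). It was the 1 gene of the 7 with both APC-KO libraries above both WT libraries, as were 8.84% of all genes tested, and Dclk1 was the 1 with both below, as were 25.2%. The direction of Il17rb is opposite to the one in the main fit of TUFT, where its sign changed with thinned cells. The difference between the effects was -1.26 (SE 0.58, adjusted p = 0.667, edgeR) in a fit with the library as a block, in which 63 of 10495 genes (0.6%) and 0 of the 9 were called. Pou2f3 had a difference of -1.05 (SE 0.43, adjusted p = 0.518, edgeR). Il17rb overlaps Actr8 on the other strand, and Actr8 was at 18.4 and 18.0 CPM in WT against 19.95 and 20.6 CPM in APC-KO in these cells. Whether the counting used strand is not given in the sources used here, so reads of the overlapping genes might not be separable, which also holds for Trpm5 with Tssc4, Avil with Tsfm and Dclk1 with a pair of predicted genes.

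The rest of the tuft programme was read from lists of known genes. Of the taste cascade, 6 of 16 genes could be tested in TUFT and 0 were called, 3 of them lower in APC-KO, with a median log2 fold change of 0.07. The taste receptor genes Tas1r1, Tas1r2, Tas2r108 and Tas2r138 had no UMI in any TUFT sum. Gng13, the gamma subunit partner of gustducin, was at 262 and 155 CPM in WT against 284 and 464 CPM in APC-KO (1.08, SE 0.31, adjusted p = 0.199, edgeR), and Itpr2, a calcium release channel, at 698 and 532 CPM against 417 and 563 CPM. Gng13 was thus above both WT libraries in each APC-KO library, as were 11.2% of all genes tested. In APC-KO replicate 1 this rested on 15 UMIs. Its partner Gnat3 was below in each, as were 28.5%, with a count of 0 in APC-KO replicate 1 that allows up to 56.8 CPM. The adjusted p of Gng13 (edgeR) was 0.00290 with thinned cells and 0.0224 with all genes of at least 1 count tested. Those fits called 77 and 155 genes in all. It missed the threshold in the other fits with 2 libraries per genotype. Without APC-KO replicate 1, which leaves 1 APC-KO library, its log2 fold change was 1.25. The log2 fold change was above 0 under all alternatives.

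Of the transcription regulators, 8 of 9 were tested, 7 were lower in APC-KO and 0 were called (median -0.47). Hmx3 was at 292 and 336 CPM in WT against 265 and 183 CPM in APC-KO, and Sox4 at 932 and 1277 CPM against 2423 and 901 CPM. Of the eicosanoid enzymes, which make prostaglandins and leukotrienes, 6 of 8 were tested, all 6 were lower and 0 were called (median -0.65). Alox5ap was at 770 and 984 CPM in WT against 663 and 476 CPM in APC-KO (-0.59, SE 0.29, adjusted p = 0.508, edgeR), and Hpgds, prostaglandin D synthase, at 461 and 512 CPM against 473 and 356 CPM.

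Of the type 2 circuit, 6 of 10 genes were tested, 4 were lower and 0 were called (median -0.26). Il13ra1, a receptor subunit for interleukin 13, was at 584 and 747 CPM in WT against 549 and 426 CPM in APC-KO. Of 35 other tuft markers, 34 were tested, 31 were lower and 0 were called (median -0.42). Kctd12 was at 3301 and 4007 CPM against 2215 and 2085 CPM, and the keratin Krt18 at 3099 and 3949 CPM against 2044 and 2205 CPM. Over all genes tested, 51.7% were lower in APC-KO. In the picked barcodes 63 genes of these other tuft lists were tested, with 28 below 0 and a median of 0.03. In TUFT the values were 51 of 60 and -0.41. The lists include the 22 markers used to pick the barcodes, so the picked values are not independent of that choice. In the fit of the difference between TUFT and other cells, Lect2 (-2.03, adjusted p = 0.0129, edgeR) and Nrep (-2.01, adjusted p = 2.94e-07, edgeR) were the tuft list genes called. Neither was called without WT replicate 1 (-1.09 and -2.08), WT replicate 2 (-2.75 and -1.72) or APC-KO replicate 2 (1.73 and -0.96), and Lect2 lost its call with thinned cells (-2.63, adjusted p = 0.0811, edgeR) and without the goblet marker cells (-1.79, adjusted p = 0.176, edgeR).

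By pattern over 45 sums of a type in a library with at least 10 cells, the 5 genes most like the mean of the 9 were Pik3cg (Pearson r 0.976), Hmx3 (0.970), Pate4 (0.966), Gng13 (0.965) and Ccdc129 (0.964), of 11753 genes ranked. The sums share libraries and differ in depth, and the correlations describe them. Pik3cg was at 289 and 302 CPM in the WT TUFT sums and 133 and 155 CPM in the APC-KO sums. Among the 9, the pair with the highest correlation was Il25 and Gnat3 (0.982), both of low counts, and the lowest was Dclk1 with Il17rb (0.703).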

How the data were processed

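UMI counts per gene and barcode were deposited as unfiltered matrices; the submitters' processing notes name Cell Ranger 3.0.2, STAR and mm10. The authors' per-cell tables, per the file headers, hold per cell its UMI and gene counts, mitochondrial percent, and 2 other values, its library and its type. How cells were filtered, named or cleared of doublets is not given in the sources used here, and no doublet caller was run. In the kept cells, genes numbered more than 900 but fewer than 3000, and the mitochondrial share stayed under 7%.

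UMIs were summed per type and library over kept cells. Genotypes were compared with edgeR 4.0.16 (R 4.3.3): TMM factors, filterByExpr, quasi-likelihood test, Benjamini-Hochberg adjustment over all genes tested, threshold 0.05. Shares were compared by exact permutation. In simulated TUFT sums, edgeR called 162 of 192 genes changed by 2 on the log2 scale, and 121 of 198 for the difference between TUFT and other cells. Smaller changes were not simulated, such as those of the listed genes in the main TUFT fit (-0.14 to -1.19). DESeq2 1.42.0, a filter of 1 count, a replicate block, left-out libraries, and cells over or thinned to 2000 UMIs (seed 11) were alternatives. The crossed block, picked barcodes, goblet-free cells and the TUFT-by-genotype fit were added after seeing the data. GENCODE vM21 matched 30934 of 31053 gene IDs (99.6%).

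The 9 genes, the other lists and the tests were chosen with earlier results of these data known. Named beside the 9 were, of each other list, genes past the threshold or else the 2 with the highest CPM in TUFT, and the 5 most alike in pattern, by log2(CPM + 1).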

Additional observations from a re-analysis of the deposited data

Results flagged for a closer look

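Il17rb was lower in both APC-KO libraries than in both WT libraries in TUFT, as were 28.5% of all genes tested. In the other cells it was higher in both, as were 8.84%. The direction in TUFT was not settled. Its log2 fold change there was 0.0171 with thinned cells, 0.0215 without goblet marker cells and 0.59 in picked barcodes. The difference of the log2 effects was -1.26 (adjusted p = 0.667, edgeR), from 1 UMI in TUFT and 5 elsewhere in APC-KO replicate 1. It was -0.86 once TUFT cells with at least 1% goblet marker UMIs were left out.

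Barcodes outside the deposited tables, with at least 500 UMIs, held at least 3 of the 9 genes in 289 cases in WT replicate 1, 231 in WT replicate 2, 164 in APC-KO replicate 1 and 199 in APC-KO replicate 2. The TUFT cells of the tables number 231, 123, 8 and 276. Of those barcodes, 231, 191, 142 and 120 had a mitochondrial share of 7% or more, from 23 to 131 a library had 900 genes or fewer, and 44, 41, 28 and 38 had 3000 or more. A total of 6, all in APC-KO replicate 2, met every bound seen in the kept cells.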

How the results depend on the processing

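A total of 265 alternative log2 fold changes of named genes were tallied. Of these, 239 kept their direction and side of the threshold, 12 reversed, 7 passed it and 7 lost it. Causes were not tested. In cells with other names the tally holds Dclk1 and Il17rb only. For the difference between TUFT and other cells it holds Pou2f3, Il17rb, Lect2 and Nrep only. Sign changes of other genes in those fits are not among the 12. Of the 7 genes tested in cells with other names, 5 were below 0 in the main fit. That number ranged from 2 to 6 with a library left out. In TUFT, 1 of the 9 genes (Rgs13) passed with no filter beyond 1 count and with thinned cells, and none with any library left out. Il17rb was 0.0171 with thinned cells and 0.0215 without goblet marker cells, and Dclk1, Trpm5, Avil, Il17rb and Sh2d6 were 0.16, 0.43, 0.27, 0.59 and 0.69 in picked barcodes. With a library left out, Pou2f3 ranged from -0.57 to 0.11 and Sh2d6 from -0.60 to 0.0183; Il17rb over all kept cells ranged from -0.0302 to 0.58. For the difference between TUFT and other cells, Pou2f3 ranged from -1.61 to 6.03 and Lect2 from -2.75 to 1.73.

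All genes called in TUFT were 13, and 1 with DESeq2, 155 with no filter beyond 1 count, 5 with cells of at least 2000 UMIs, 77 thinned, 1 in picked barcodes, and with a library left out from 0 (WT replicate 1 or APC-KO replicate 2) to 388 (APC-KO replicate 1). Over all kept cells 0 became 23 with DESeq2, 21 with no filter and 0 to 483 with a library left out, where members called were 0 to 1. In the other types 0 became 22, 12 and 0 to 52. The 63 genes called for the difference became 14 thinned, 9 without goblet marker cells and 0 to 209 with a library left out; without WT replicate 1 they were 2.

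The replicate numbers share no stated origin, and same-numbered libraries deviated with correlations of -0.05, -0.23 and -0.24 in TUFT, all and other cells. With the replicate block, called genes were 2, 4 and 2, and with the crossed pairing 8, 1 and 13, with 0 of the 9 genes among them.

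The TUFT share difference ranged from -1.76 to 0.412 points with a library left out. For positive TUFT cells those ranges were -18.9 to 5.94 for Trpm5, -26.7 to 1.38 for Pou2f3, -12.3 to 7.99 for Avil and -10.7 to 12.3 for Sh2d6. Thinned, differences were 4.45 for Avil, 3.31 for Il17rb and -0.783 for Sh2d6, which was -3.26 at 2 UMIs or more. Depth limits Il25, Gnat3 and every value of APC-KO replicate 1.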
